A study of Mus musculus with 5 samples.

Results

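A set of 7 genes, most of them widely used to recognise neurons, was followed across single cells from the circulation of mouse embryos: the neurofilament genes Nefm and Nefl, the tubulin gene Tubb3, the stathmin gene Stmn2, the RNA-binding protein genes Elavl3 and Elavl4, and Miat. They are 7 of the 24411 genes in the count table and were chosen because they stood out among cells of this data set, so their levels in cells are given as a description. Miat codes for no protein and is therefore neither a cytoskeletal nor an RNA-binding protein gene, and the set is named here by its members. All cells came from wild type C57BL/6 embryos, as blood circulating in the heart, at embryonic day 9.5 (E9.5, 2 batches) or 10 (E10, 3 batches). Cells without the blood surface proteins CD41, CD43, CD45 and TER119 were sorted and picked singly by mouth pipette for a modified STRT-seq protocol, which tags the polyadenylated end of each RNA molecule with a unique molecular identifier (UMI). The labels do not say how many embryos a batch pooled or whether batches came from separate litters, so p-values between stages measure the spread between these batches, which may be technical. A level is given as CPM, the UMIs of a gene scaled to a fixed total per cell, and since a UMI marks 1 molecule no gene length enters it.

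Neurofilaments are the intermediate filaments of neurons and set the calibre of axons, with the light chain Nefl and the medium chain Nefm as subunits of one filament. Tubb3 is a beta-tubulin that neurons switch on as they leave the cell cycle, and Stmn2 binds tubulin in growth cones. The Elavl3 and Elavl4 proteins (HuC and HuD) bind AU-rich messages and are early markers of neurons. In the trunk of the embryo, peripheral neurons arise from the neural crest, whose migrating cells and glia carry the transcription factor Sox10, which sympathetic neurons lose as they mature.

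Of 480 wells, 294 held at least 1000 genes and 30000 UMIs and were kept as cells, between 26 and 87 in a batch, with 31294 to 1407021 UMIs and a median of 308924. Batch totals ran from 7545865 UMIs in E9.5 replicate 1 to 44415774 in E10 replicate 1. Ptprc, the gene of CD45, was at 0 UMIs in all kept cells, while 48 cells held at least 10% of their UMIs in haemoglobin genes and are called red cells here, 26 of them in E10 replicate 2. The batches share well numbers and so cell barcodes. In 23 wells outside the kept cells, the profile repeated that of the same well number in another batch at under 10% of its UMIs.

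The 7 genes lie on 6 chromosomes in the mm10 build (GENCODE M21). Stmn2 lies at chr3:8509360-8561606 on the plus strand, Elavl4 at chr4:110203722-110351909 on the minus strand, Miat, a long intergenic noncoding RNA gene, at chr5:112213228-112229395 on the minus strand, Tubb3 at chr8:123411424-123422015 on the plus strand and Elavl3 at chr9:22015005-22052023 on the minus strand. Nefm at chr14:68082590-68124846 on the minus strand spans Nefl at chr14:68083863-68089095 on the plus strand, and the annotated exons of the pair share 1108 positions. No strand setting of the counting is recorded, so reads from these positions cannot be told apart, and the same holds for Miat and an overlapping gene on the other strand. Elavl3 and Tubb3 each overlap another annotated gene on their own strand.

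Promoter windows were available for Elavl3, Elavl4, Tubb3 and Miat from RefSeq (GRCm38.p6). Elavl3 and Elavl4 varied together across cells (Pearson r = 0.796 over the 294 kept cells), as did Elavl3 with Tubb3 and with Miat (r = 0.807 for each). Windows of the RNA-binding pair alone are shown. Each is the 250 bases before a transcript start, 5′ to 3′ on the gene's strand, with capitals marking CAGCTG, a form of the E-box that basic helix-loop-helix factors bind.
Elavl3, chr9:22052024-22052273, minus strand: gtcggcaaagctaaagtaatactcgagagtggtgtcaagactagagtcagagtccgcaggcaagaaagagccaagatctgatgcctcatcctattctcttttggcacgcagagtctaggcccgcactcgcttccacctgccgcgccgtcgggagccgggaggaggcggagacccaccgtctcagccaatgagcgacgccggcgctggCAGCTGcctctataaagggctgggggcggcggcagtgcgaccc
Elavl4, upstream start, chr4:110351912-110352161, minus strand: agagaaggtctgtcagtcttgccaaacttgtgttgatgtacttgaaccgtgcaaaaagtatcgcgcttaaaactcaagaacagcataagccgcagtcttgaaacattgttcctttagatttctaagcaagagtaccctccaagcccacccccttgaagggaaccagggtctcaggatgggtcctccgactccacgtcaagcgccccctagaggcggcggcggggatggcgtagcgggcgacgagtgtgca
Elavl4, internal start, chr4:110287528-110287777, minus strand: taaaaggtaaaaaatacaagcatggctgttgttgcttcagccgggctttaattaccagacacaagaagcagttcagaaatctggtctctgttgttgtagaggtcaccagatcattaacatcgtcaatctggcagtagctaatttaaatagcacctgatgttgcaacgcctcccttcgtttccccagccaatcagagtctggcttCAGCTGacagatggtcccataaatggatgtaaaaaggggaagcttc
CAGCTG, which reads the same on both strands, began 43 bases before the Elavl3 start and 46 bases before the internal Elavl4 start, and the upstream Elavl4 window held none. Of 2 further internal Elavl4 windows, which contain exon bases and are not shown, the one at chr4:110287512-110287761 overlaps the window shown and holds the same CAGCTG, and the one at chr4:110286835-110287084 holds none. The Tubb3 and Miat windows held no CAGCTG. Among all 32851 such windows, 4271 (13%) held it. The Sox-type motif ACAAAG, searched on both strands, was in none of the 7 windows of these genes and in 5408 of all windows, a share of 16.5%. A match is a string of letters and not evidence of binding.

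Across cells the genes other than Stmn2 were high mainly in a small group and low in most other cells. Stmn2 reached 100 CPM in 22 cells of that group and in 24 cells outside it. In 36 of the 294 cells at least 3 of the 7 genes reached 100 CPM, and these are called co-expressing cells. None of the genes reached 100 CPM in 217 cells, 1 did in 31, 2 in 10, 3 in 9, 4 in 2, 5 in 3, 6 in 10 and all 7 in 12. Most cells thus held none of the set at 100 CPM, 55 held 1 to 5 of the genes at that level and 22 held 6 or 7. Below it, a Nefm UMI was found in 88.1% of all 294 cells, counting those above the limit. Around the limit of 3 genes, 1 cell of E10 replicate 2 just inside it had Nefm at 201, Stmn2 at 118 and Tubb3 at 106 CPM, and another just outside it had Nefm at 272, Stmn2 at 116 and Nefl at 76.9 CPM.

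**Figure D1:**
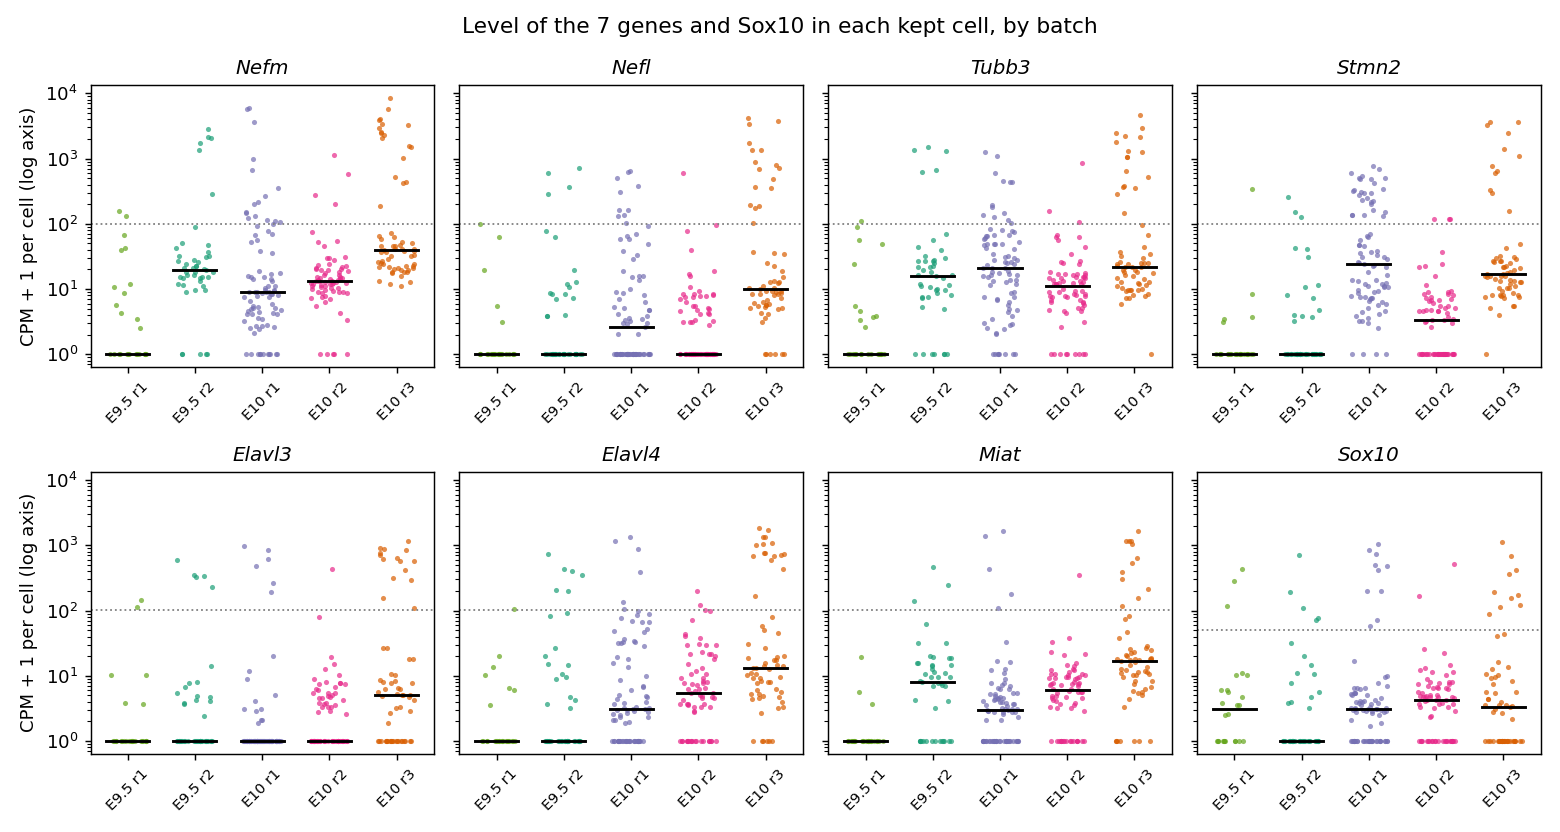
Level of each gene and of Sox10 in each of the 294 kept cells (points, CPM + 1 on a log axis) by batch, with the batch median as a bar and dotted lines at 100 CPM (50 CPM for Sox10). Every batch has most cells at low values, and E10 replicate 3 has the most cells above 100 CPM for each of the 7 genes except Stmn2, for which E10 replicate 1 has 27.

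Nefm was at 100 CPM or more in 46 cells, 35 of them co-expressing, and reached 8552 CPM. Nefl reached that level in 32 cells, 29 of them co-expressing, and its highest value was 4154 CPM. In 33 of the 36 co-expressing cells Nefm exceeded Nefl, with a median log2 ratio of 1.82 (CPM with 10 added), and r between them was 0.803 over all kept cells and 0.478 to 0.941 within the 5 batches. Tubb3 was on in 39 cells, 32 of them co-expressing, and peaked at 4629 CPM.

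Elavl3 and Miat were on in the fewest cells of the 7 genes. Elavl3 reached 100 CPM in 29 cells and Miat in 21, and each of these cells also held Nefm at 100 CPM or more. All 21 Miat cells and 28 of the 29 Elavl3 cells were co-expressing. Seen from Nefm, 63.0% of its 46 cells held Elavl3 and 45.7% held Miat at that level. Elavl4 was on in 32 cells, 27 of them co-expressing, with Elavl4 above Elavl3 in 23 and below it in 11 of the 36 co-expressing cells.

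Stmn2 departed from the other members. It reached 100 CPM in 46 cells, as many as Nefm, but 24 of these were not co-expressing, and 22 of those 24 belonged to E10 replicate 1. The co-expressing cells held 56.9% of all Stmn2 UMIs, against 83.4% to 96.3% of those of the other members, and within E10 replicate 1 they held 12.6%. Correlations of Stmn2 with the other members ran from 0.275 to 0.647 over the 294 cells, while the 15 pairs without Stmn2 ran from 0.645 to 0.843. Within E10 replicate 1, r of Stmn2 with Nefm was -0.003. The cells come from 5 libraries that differ in depth, and the correlations are a description.

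In the 22 Stmn2-positive cells of E10 replicate 1 outside the co-expressing group, Stmn2 had a median of 269 CPM (range 129.6 to 684), with Nefm at a median of 3.30, Tubb3 at 30.7 and Elavl3 at 0 CPM. Dppa5a, a gene of pluripotent cells, reached 100 CPM in 20 of these 22 cells (median 2248 CPM) and in 3 of the 57 other cells of that batch outside the co-expressing group (median 2.93 CPM). Zfp42 and Nanog, also genes of pluripotent cells, did so in 20 and 17 of the 22 and in 1 each of the 57. Mesenchymal genes were on in part of the 22 cells as well. Of 7 such markers, Col3a1 reached 100 CPM in the most of them (17) and Pdgfrb in the fewest (3). In the 57 other cells Col3a1 and Pdgfrb did so in 48 and 15. The epithelial markers Cdh1 and Epcam did so in 3 and 2 of the 22 and in 0 of the 57. All these genes were named after their values were seen, and their part in the Stmn2 level was not tested.

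Low values of the set were not read as expression. Among the 48 red cells, Nefm had at least 1 UMI in 97.9% at a median depth of 362311 UMIs, and among the 211 other cells outside the co-expressing group in 84.4% at a median depth of 301285. Thinned to 30000 UMIs per cell, with no kept cell below that, these shares were 50% and 40.8%, against 97.2% in the co-expressing cells. In the same thinned cells Elavl3 had a UMI in 8.33% of red cells, 4.27% of the other cells and 83.3% of co-expressing cells. Median Nefm levels were 17.5 CPM in red cells and 1666 CPM in co-expressing cells. The co-expressing cells were chosen by the levels of these same genes, so their high shares and median follow from that choice.

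The well barcodes bear on 2 cells named above. In E10 replicate 2, 7 kept cells share a well number with a cell of E10 replicate 3 that held at least 1000 UMIs of the 7 genes, and all 7 held between 1.87% and 2.42% of that cell's number. One of them was the co-expressing cell with Nefm at 201 CPM, the only red cell among the 36, with 197 such UMIs against 8680. The cell just outside the limit was another, with 239 against 12097. Among the 36 co-expressing cells, 13 shared a well number with another in a different batch, in 8 pairs. In E9.5 replicate 1, 1 of the 2 co-expressing cells held 57 such UMIs against 2550 in the same well number of E10 replicate 1 (2.24%), with Sox10 at 440 CPM in the first and 0 in the second. The part of this pattern in the levels was not tested.

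Sox10 divided the co-expressing cells. Sox10 was at 50 CPM or more in 30 of the 294 cells. Of these 30, 14 were co-expressing and 16 were not, while the other 22 co-expressing cells were below that limit and left 242 cells with neither. The correlation of Sox10 with the 7 genes was weak over all kept cells, from 0.056 with Stmn2 to 0.394 with Miat. The comparisons that follow are between cells and carry no test.

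**Figure D2:**
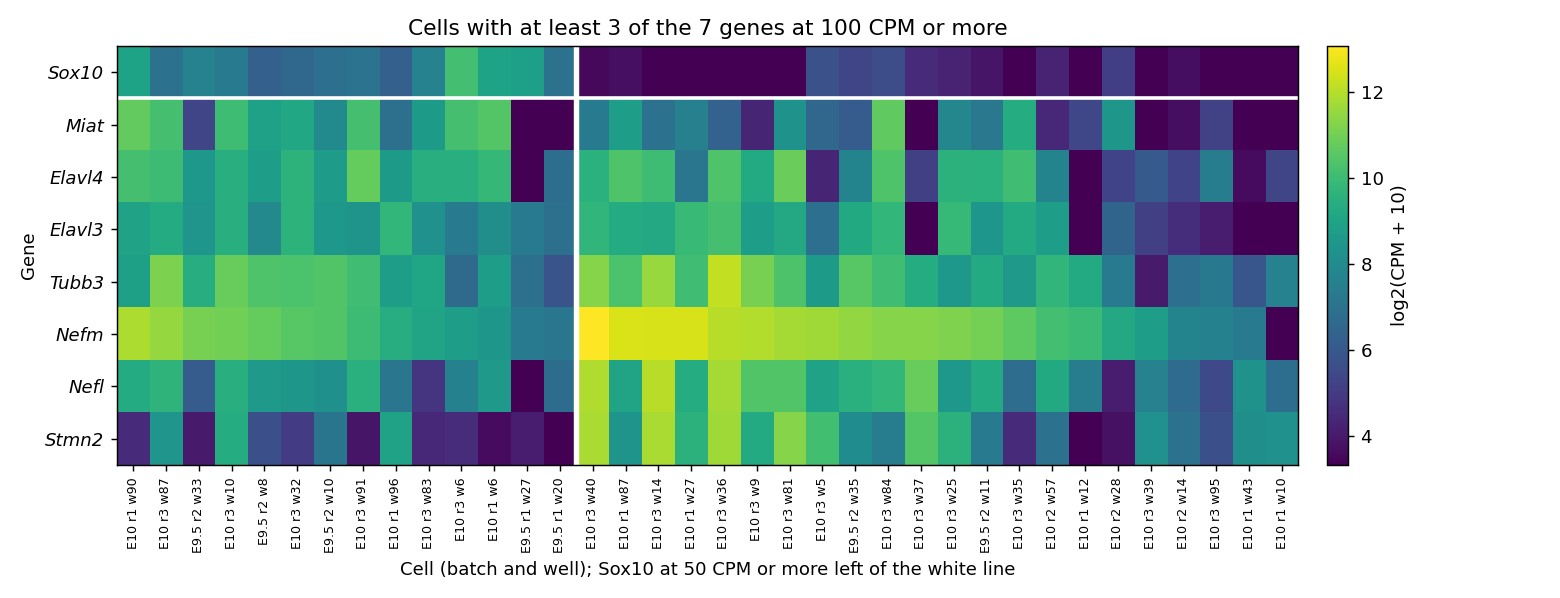
Level of Sox10 and of the 7 genes (rows, colour as log2 of CPM + 10) in each of the 36 co-expressing cells (columns, batch and well), with the 14 cells at 50 CPM or more of Sox10 left of the white line and both sides ordered by Nefm. Nefm is bright on both sides, while Stmn2 is at 100 CPM or more in 4 of 14 cells on the left and 18 of 22 on the right.

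Stmn2 and Miat split most clearly by Sox10. Stmn2 had a median of 12.9 CPM (range 0 to 637) in the 14 Sox10-positive co-expressing cells and of 295 CPM (0 to 3667) in the 22 Sox10-low ones. Miat had medians of 506 CPM (0 to 1659) and 77.5 CPM (0 to 1638). Stmn2 exceeded Miat in 2 of the 14 and in 17 of the 22 cells. In each of the 3 batches that held both kinds of cell, the median of Stmn2 was lower and that of Miat higher with Sox10, although the ranges overlapped. In E10 replicate 3, with 6 and 12 cells, the medians were 17.6 and 926 CPM for Stmn2 and 1104 and 98.8 CPM for Miat. With Stmn2 not counted in choosing the cells, its medians were 12.9 and 464 CPM. Inside the 36 cells r with Sox10 was -0.552 for Stmn2 and 0.441 for Miat.

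The neurofilament genes followed Stmn2 in direction, with wide overlap. The median of Nefm was 1184 CPM (130.4 to 3686) with Sox10 and 2406 CPM (0 to 8552) without, and it was lower with Sox10 in all 3 batches with both. Nefl had medians of 318 CPM (0 to 795) and 548 CPM (7.17 to 4154), lower in 2 of these 3 batches. Tubb3 differed little in its median, at 597 CPM (47.7 to 2242) and 629 CPM (6.405 to 4629), and its direction varied between the batches. With Stmn2 not counted in choosing the cells, Tubb3 had medians of 597 and 957 CPM. The highest values of all 3 cytoskeletal genes and of Stmn2 were in Sox10-low cells of E10 replicate 3.

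The Elavl genes were on with and without Sox10. Elavl3 was at 100 CPM or more in all 14 Sox10-positive co-expressing cells and in 14 of the 22 others, with medians of 323 CPM (111 to 860) and 426 CPM (0 to 1167). Elavl4 was on in 13 of 14 and 14 of 22, with medians of 686 CPM (0 to 1744) and 200 CPM (0 to 1817). That difference rests on cells near the limit: with Stmn2 not counted, which leaves 14 and 18 cells, the Elavl4 medians were 686 and 666 CPM, and with a limit of 200 CPM for the members, 695 and 734 CPM in 12 and 15 cells. Elavl3 differed by -0.39 on the log2 scale, with Sox10 minus without, and by 0.12 in cells thinned to 30000 UMIs. The direction of both medians varied between the 3 batches. Between the 2 genes r was 0.780 within the 36 cells, and 0.417 to 0.895 over the cells of single batches.

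**Figure D3:**
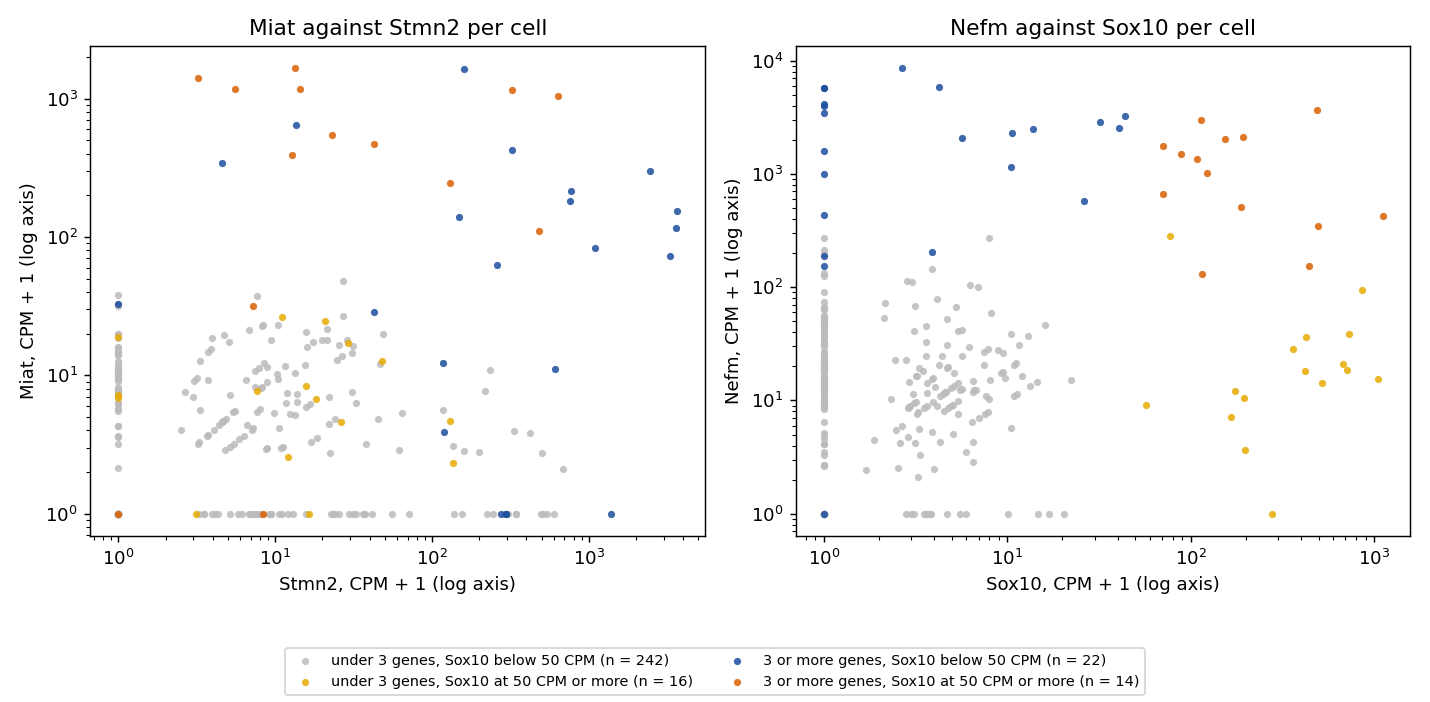
Each point is 1 of the 294 kept cells, with Miat against Stmn2 on the left and Nefm against Sox10 on the right, both as CPM + 1 on log axes and coloured by class. The 14 Sox10-positive co-expressing cells lie mostly at high Miat and low Stmn2, and the 16 other Sox10-positive cells have a median Nefm of 15.8 CPM.

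The 16 Sox10-positive cells outside the group hold fewer than 3 of the 7 genes at 100 CPM by definition. Among the 242 cells with neither, 34 had 1 or 2 of the genes at that level. The share was higher in the 16 cells, of which 7 did, with Nefm up to 284, Tubb3 up to 283 and Elavl4 up to 433 CPM. Their Sox10 median was 390 CPM, above the 138 CPM of the Sox10-positive co-expressing cells, and their medians were 15.8 CPM for Nefm, 25.7 for Tubb3, 15.1 for Stmn2, 6.64 for Elavl4, 6.02 for Miat and 0 for Elavl3. The medians of the 242 cells were 12.5 CPM for Nefm, 11.1 for Tubb3, 4.85 for Stmn2, 2.62 for Elavl4, 3.31 for Miat and 0 for Elavl3. Crest genes were on in the 16 Sox10-positive cells: Tfap2b, a crest transcription factor, had a median of 477 CPM. Nes, an intermediate filament gene of progenitors, had a median of 133 CPM in the same 16 cells. In the co-expressing cells Tfap2b had a median of 284 CPM with Sox10 and 6.04 CPM without. Erbb3 and Cdh19, 2 other genes of that lineage, were at a median of 0 and in no class reached 100 CPM.

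The co-expressing cells carried genes of noradrenergic neurons. Hand2, which drives noradrenergic differentiation, was at 100 CPM or more in 10 of the 14 Sox10-positive and 11 of the 22 Sox10-low co-expressing cells, Isl1, a homeobox gene of early neurons, in 10 of 14 and 15 of 22, and Dbh, the enzyme that makes noradrenaline, in 11 of 14 and 13 of 22. Th, the first enzyme of that pathway, was on in 7 of 14 and 9 of 22. In the 16 Sox10-only cells Isl1 was on in 1 and Hand2, Dbh and Th in none.

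A few Sox10-low cells carried other regulators, and these were picked out after their values were seen. Neurod1, a gene of sensory neuron precursors among others, reached 100 CPM in 6 of the 22 Sox10-low and none of the 14 Sox10-positive co-expressing cells. Of these 6, 5 were in E10 replicate 3 and had Stmn2 between 607 and 3667 CPM, Nefl between 1368 and 4154 CPM and Hand2 at 5.31 CPM or less. The 4 highest Stmn2 values of the whole data set, 3667, 3614, 3290 and 2471 CPM, were in these cells. The last of them also had Pou4f1, a gene of sensory neurons, at 1472 CPM. The sixth cell, in E10 replicate 1, had Stmn2 at 0 CPM, but at 31294 UMIs, the lowest depth of all kept cells.

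Genes of the same families were unevenly on. Of the other intermediate filament genes, Nefh, the heavy neurofilament chain, reached 100 CPM in no cell, Prph in 4 and Ina in 5 of the 36 co-expressing cells, and Vim, general to immature cells, in 32. Among 20 microtubule and growth cone genes, Map1b was at a median of 1032 CPM in co-expressing cells against 41.5 CPM in the 242 cells, and Dpysl3 at 1368 against 19.1 CPM. Stmn1, the widely used relative of Stmn2, was at 707 and 710 CPM. Stmn3 was on in 18 co-expressing cells and in 1 of the 258 others.

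Among 22 RNA-binding genes, Srrm4, a splicing factor of neurons, reached 100 CPM in 25 of the 36 co-expressing cells, in 2 of the 16 Sox10-only cells and in none of the 242. Elavl1, the general member of the Elavl family, was at medians of 130 and 178 CPM in co-expressing cells and in the 242. Rbfox3, which codes for the mature neuron marker NeuN, was on in no cell. Among 11 long noncoding RNAs, Malat1 was on in every cell, while Snhg11 was on in 14 of 36 co-expressing cells and 5 of the 258 others. Miat, which is not in that list and helps to define the co-expressing cells, was on in 21 and 0. Of 16 synaptic and secretory genes, Syt11 was on in 26 of 36, Scg3 in 17 and Syt1 in 9 co-expressing cells.

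Among markers of other cell types, endothelial, epithelial and blood progenitor genes had low summed medians in co-expressing cells. Erythroid and mesenchymal genes were present, at lower medians than in the 242 cells. The summed level of 7 endothelial markers had a median of 38.2 CPM (range 0 to 260.3) in the Sox10-positive and 4.65 CPM (0 to 145) in the Sox10-low co-expressing cells. The 6 epithelial markers summed to medians of 2.14 CPM (0 to 162) and 6.44 CPM (0 to 456), and the 8 markers of blood progenitors to 15 CPM (0 to 118) and 10.4 CPM (0 to 307). In the 242 cells the endothelial, epithelial and blood progenitor medians were 5.81, 19.8 and 38.8 CPM. The endothelial median was thus higher in the Sox10-positive co-expressing cells than in the 242. Cdh5, Pecam1, Kdr, Epcam, Cdh1 and Runx1 were at a median of 0 in both kinds of cell. The 7 erythroid markers summed to 151 to 14371 CPM in the Sox10-positive and 285 to 186176 CPM in the Sox10-low cells, with medians of 8479 and 8142 CPM, against 13124 CPM in the 242 cells and 104701 CPM or more in red cells. The 7 mesenchymal markers summed to 17.8 to 1800 CPM (median 418) and 13.2 to 4325 CPM (median 111), with Col1a2 at medians of 332 and 44.6 CPM. Their summed median in the 242 cells was 857 CPM. The part of these markers in the differences between the 2 kinds of cell was not tested.

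Genes outside the set that tracked it most closely were found among 11896 genes with a UMI in at least 10% of kept cells, by the mean of their 7 Pearson r over the 294 cells. The first was Nfasc (neurofascin, 0.711), followed by Myt1 (0.710), Isl1 (0.705), Scg3 (0.701), Dbh (0.700), Chrna3 (0.696), Srrm4 (0.693), Stmn3 (0.689), Tlx2 (0.681) and Insm1 (0.672). For Nefm and Nefl alone Dbh was nearest (0.786 and 0.763), for Tubb3 Isl1 (0.750), for Elavl3 Myt1 (0.809), and for Elavl4 and Miat Nfasc (0.738 and 0.803). Stmn2 stood apart again: its nearest genes were Mreg (0.662), Stmn3 (0.624) and Rgs4 (0.619).

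The share of co-expressing cells was compared between stages. It was 7.69% in E9.5 replicate 1 (2 of 26 cells, 95% exact binomial interval 0.946% to 25.1%) and 10.9% in E9.5 replicate 2 (5 of 46, 3.62% to 23.6%). At E10 it was 9.20% in replicate 1 (8 of 87, 4.05% to 17.3%), 4.17% in replicate 2 (3 of 72, 0.868% to 11.7%) and 28.6% in replicate 3 (18 of 63, 17.9% to 41.3%). The stages overlapped, and E10 replicate 3 stood above the other 4 batches. The means were 9.28% ± 2.25 (SD, n = 2) and 13.98% ± 12.9 (SD, n = 3), and the difference of 4.70 percentage points gave an exact two-sided permutation p of 0.9, which with 2 batches against 3 cannot fall below 0.1. Without E10 replicate 3 it became -2.60 points. The intervals cover counting error only.

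Sox10-positive co-expressing cells numbered 2, 3, 3, 0 and 6, and Sox10-low ones 0, 2, 5, 3 and 12, in E9.5 replicates 1 and 2 and E10 replicates 1, 2 and 3. E9.5 replicate 1 thus held the positive kind alone and E10 replicate 2 the low kind alone, each with no more than 3 cells. Red cells made up 26 of the 72 cells of E10 replicate 2, the batch with the lowest share of co-expressing cells, and 1 to 11 cells in the other batches. Without red cells the difference between stages was 5.33 points, and without the 7 cells of E10 replicate 2 that share a well number with a cell rich in the 7 genes in E10 replicate 3 it was 4.33 points.

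Counts were next summed over the cells of each batch (CPM of the sum, scaled by TMM, a correction for composition). Nefm was at 12.1 and 309 CPM in E9.5 replicates 1 and 2, and at 133, 59.2 and 803 CPM in E10 replicates 1, 2 and 3. Nefl was at 7.66 and 62.4 CPM, and at 33.2, 20.6 and 348 CPM. Tubb3 was at 10.3 and 178 CPM, and at 52.8, 37.7 and 367 CPM. E10 replicate 3 was the highest and E9.5 replicate 1 the lowest batch for all 3 cytoskeletal genes, and the stages overlapped.

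Elavl3 was at 7.66 and 54.2 CPM at E9.5 and at 25.6, 14.4 and 136 CPM at E10. Elavl4 was at 5.49 and 73.5 CPM, and at 41.8, 17.7 and 219 CPM. Miat was at 0.51 and 37.1 CPM, the first from 4 UMIs, and at 34.5, 10.97 and 126 CPM. These 3 genes kept the order of batches seen for Nefm. Stmn2 did not, at 27.6 and 19.1 CPM at E9.5 and 115, 10.5 and 325 CPM at E10, with E10 replicate 2 the lowest. In E9.5 replicate 1, 98.1% of the Stmn2 UMIs came from 1 cell that was not co-expressing.

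**Figure D4:**
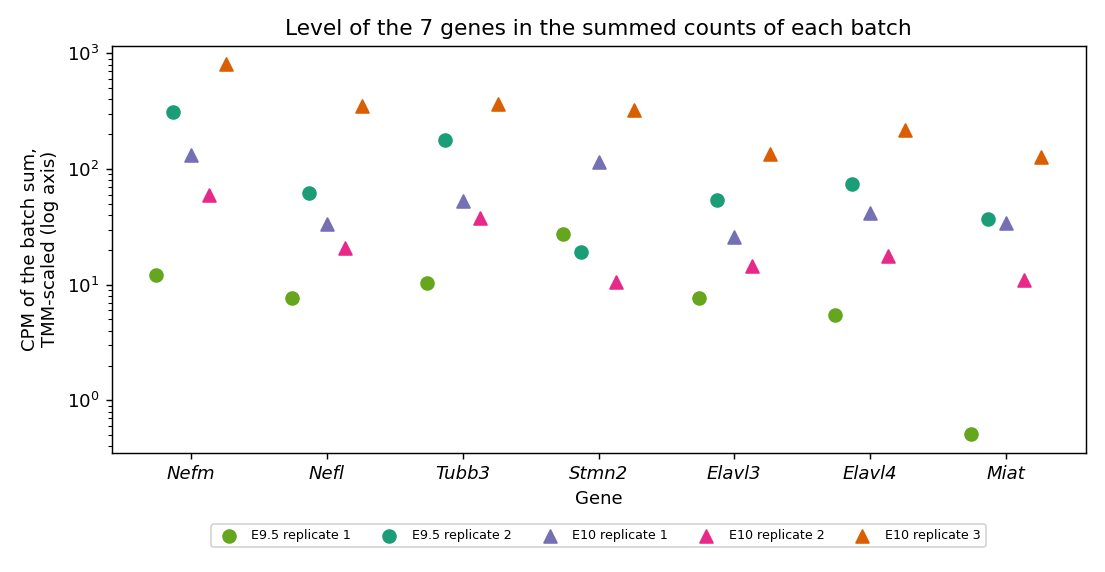
Level of each gene in the summed counts of each batch (CPM after TMM scaling, log axis), circles for E9.5 and triangles for E10. E10 replicate 3 is the highest of the 5 batches for every gene, and the 2 E9.5 batches differ from 12.1 to 309 CPM for Nefm.

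No member passed the test between the stages. With the quasi-likelihood test of edgeR, adjusted over 14103 genes by Benjamini-Hochberg, 0% of genes were called at an adjusted p of 0.05, and 0 of the 7 members were called. At an unadjusted p under 0.05 there were 1119 genes and no member, and DESeq2 called 96 genes and no member. The log2 fold change of E10 over E9.5 was 2.69 (SE 1.19, adjusted p = 0.616) for Stmn2, 1.94 (SE 1.38, adjusted p = 0.692) for Nefl and 0.70 (SE 1.28, adjusted p = 0.905) for Tubb3. For the others it was 1.04 for Nefm, 0.92 for Elavl3, 1.24 for Elavl4 and 1.61 for Miat. The median over the members was 1.24, and over all genes tested 0.09. Sox10 was at -0.18 (SE 0.50, adjusted p = 0.941).

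The fold changes moved with single batches. Without E10 replicate 3 the log2 fold change turned to -0.74 for Nefm, -0.38 for Nefl, -1.06 for Tubb3, -0.63 for Elavl3 and -0.41 for Elavl4, and the median over members to -0.41. Without E9.5 replicate 2 that median was 4.08, and without E9.5 replicate 1 it was 0.33, with Tubb3 at -0.23. A few cells carried the sums: 6 cells held 50% of all Nefm UMIs and 4 cells 50% of those of Nefl. A batch sum mixes the number of such cells with the RNA in each, which a sum alone cannot tell apart.

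The related lists gave no called gene at either stage. Of the 20 microtubule and growth cone genes, all 20 were tested and 0 rose or fell, with a median log2 fold change of 0.70, and of the 22 RNA-binding genes 22 were tested and 0 were called, with a median of 0.68. The medians were 3.48 over 5 tested intermediate filament genes, 0.92 over 10 long noncoding RNAs, 1.32 over 14 synaptic genes, 0.99 over 26 neuronal transcription factors, 1.47 over 9 catecholamine and acetylcholine genes and -0.16 over 21 neural crest genes, with 0 called in each. The same was seen for 19 neurotrophin and guidance receptor genes (median 1.40) and 7 neural progenitor genes (2.26). Among the marker lists of other cells, also with 0 called, the medians were 0.72 over 4 haemoglobin genes, 0.35 over 6 erythroid markers, 0.13 over 7 blood progenitor markers, -0.23 over 7 mesenchymal markers, -3.93 over 7 endothelial markers and 0.57 over 6 epithelial markers.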

How the data were processed

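Single-cell libraries of 5 batches were examined as the deposited UMI counts. The submitters' processing notes name CASAVA 1.8 for base calling, TopHat2 2.0.12 with mm10 for alignment and HTSeq for counting; versions of HTSeq and the annotation are not given in the sources used here. The match of columns to samples rests on the batch number in the column names. The 95 spike-in rows were dropped. Picked single cells were not passed through a doublet caller.

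CPM used all gene UMIs of a cell. Shares carry exact Clopper-Pearson intervals and were compared by exact permutation of batches. Counts summed per batch were tested with edgeR 4.0.16 (filterByExpr, TMM, quasi-likelihood) in R 4.3.3 with DESeq2 1.42.0 and limma 3.58.1 as alternatives, after the fit was tested on simulated data. Correlations used log2(CPM + 10) under Python 3.11.15. The 7 genes, the 16 gene lists, thresholds and tests were chosen with earlier results of these data known. Besides the 7 genes and Sox10, the rule for naming took up to 5 genes a list by mean level in co-expressing cells, the 3 genes most like each member and the 10 most like the set; other genes were named after their values were seen, among them Neurod1, Pou4f1, Dppa5a, Zfp42, Nanog, Erbb3, Cdh19, Rbfox3, Elavl1, Stmn3 as a family member, and the endothelial and epithelial examples. Alternatives varied the test, scaling, filters, thresholds, depth and batches; those on carry-over between wells, on counting without Stmn2 and on the co-expressing cells were added after the data were seen. Some genes of the lists are not reported here.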

Additional observations from a re-analysis of the deposited data

How the results depend on the processing

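The share of co-expressing cells kept its direction between stages under 13 of 14 alternatives, from 2.94 to 9.60 percentage points, and p stayed between 0.6 and 1.0. Leaving out 1 batch at a time gave -2.60 to 9.60 points, the lowest without E10 replicate 3. DESeq2 called 96 genes between stages where edgeR called 0, and leaving out 1 batch at a time called 0 in each case. No member was called under any of the 14 alternatives, with adjusted p between 0.434 and 0.992. Leaving out the repeated wells, 1 of the 14 alternatives, removed no kept cell, so its results equal the main ones. Of 98 log2 fold changes of members, 92 kept their direction. The 6 that turned were, without E10 replicate 3, Nefm at -0.74, Nefl at -0.38, Tubb3 at -1.06, Elavl3 at -0.63 and Elavl4 at -0.41, and, without E9.5 replicate 1, Tubb3 at -0.23. The cause was not tested. Over single batches left out, the highest values were 6.79 for Miat, 4.77 for Nefm, 4.13 for Nefl, 4.08 for Elavl4, 3.88 for Tubb3 and 2.93 for Elavl3, each without E9.5 replicate 2, and 3.23 for Stmn2 without E10 replicate 2. Of 42 differences by Sox10, 40 moved by less than 1 SD over batches, which is wide for the Elavl genes (3.47 and 2.56). On the log2 scale Elavl4 was at 1.73, but -0.08 with members at 200 CPM, 0.05 with Stmn2 not counted and 0.62 with Sox10 at 20 CPM. Elavl3 turned from -0.39 to 0.12 when thinned, Nefm moved from -1.03 to -0.63 with Sox10 at 20 CPM, and Tubb3 from -0.09 to -0.67 with Stmn2 not counted. Stmn2 stayed between -5.10 and -3.54 and Miat between 1.91 and 3.15. No paired analysis was possible because the replicate numbers follow accession order and pair no batches, and each batch holds 1 stage. With 26 to 87 cells a batch, shares are known only within the intervals given, and 2 batches against 3 limit every test of stage.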
